A study of Mus musculus with 6 samples.

Results

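Astroglial cells from the striatum of newborn mice were compared between 2 sets of sub-clusters within the same libraries. The branch set holds the cells of sub-clusters 3, 5 and 10 and the comparison set those of sub-clusters 0, 1, 2, 9 and 11, as numbered in the annotation that the authors deposited. They were selected by postnatal day 3 (P3) origin and sub-cluster number alone, which gave 6533 cells (1843 in the branch set and 4690 in the comparison set) of 8874 astroglial cells at P3, 9992 in the series and 14373 annotated cells. The other 2341 P3 astroglial cells, mostly the cycling sub-clusters and the shallow sub-clusters 4 and 12, were not members. The libraries were 3' single-cell RNA-seq (10x Chromium) of striatal tissue from wild-type male C57BL/6 mice, enriched with magnetic beads for ACSA2, a surface epitope of astrocytes carried by Atp1b2. There were 3 P3 libraries and 3 libraries of mice 3 months old (3m), each made from a separate preparation that pooled tissue of 2 to 5 animals. No mouse carried a transgene or received a treatment.

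The forebrain is patterned before birth by transcription factors that mark territory. Lhx2, Emx2 and Nr2e1 act in the telencephalon, which gives rise to cortex and striatum, Emx1 and Pax6 are strongest in its dorsal part, and Gsx2, Dlx1 and Dlx2 act in its ventral part. Irx genes, Gbx2, En1 and the Hox genes mark the diencephalon, midbrain and hindbrain. Astrocytes keep part of this code, and those outside the telencephalon are known for angiotensinogen (Agt) and for the GABA transporter Slc6a11 and the glycine transporter Slc6a9.

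The 2 sets were taken as non-telencephalic and telencephalic because the study saw sub-clusters 3, 5 and 10 group with non-telencephalic cells of a reference atlas, and 1, 9 and 11 with telencephalic ones, a placement that it worded with caution. Several regional genes went against these names at P3. Lhx2, a LIM homeodomain factor of the telencephalon, was higher in the branch-set cells, and Agt, Slc6a11 and Slc6a9 were lower. Others went with the names, with the non-telencephalic Itih3 and Otx2 called higher and the telencephalic Dlx1 called lower. Neither set is given a regional name here. The word branch refers to the pseudotime map, whose side branches also hold sub-clusters 4, 12 and 15, which were not members. The comparison set is not a single path of that map, since all its cells of sub-clusters 0 and 2 have a pseudotime score but at most 39.4% of those of 1, 31.6% of 9 and 14.2% of 11 do in any library. Among the largest differences, the branch set was high in genes of multiciliated cells, which line the ventricles, and low in Olig1, Olig2, Agt, Grm5 and S100b.

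The unique molecular identifiers (UMIs, 1 per captured mRNA molecule) of each library were summed per side, and levels are given as UMIs per 1000000 of that sum (CPM). Branch-set sums held 1008847, 5470196 and 4978091 UMIs in replicates 1, 2 and 3, and comparison-set sums 15285176, 16723649 and 11868066. Replicate 1 stood apart in makeup. The branch set was 6.25% of its P3 astroglial cells (95% Wilson interval 5.26 to 7.40%), against 27.2% (25.7 to 28.8%) and 23.1% (21.8 to 24.5%) in replicates 2 and 3, intervals that cover counting error only. Sub-cluster 1 was 95.5% cells of replicate 1, and sub-cluster 10 was 72.3% cells of replicate 3. Leaving replicate 1 out gave 1370 genes higher and 1036 lower of 12970 tested, beside 1235 and 976 of 12726 with all 3 libraries. At most 3 cell barcodes of the members were shared by any pair of libraries. Branch-set cells were shallower, with a median of 8003, 6220 and 5435 UMIs per cell against 9214.5, 8596 and 7497, and held a lower median share of mitochondrial UMIs, 1.69, 1.49 and 1.06% against 2.68, 2.05 and 1.66%. Each library showed both differences, and the exact paired permutation test over 3 libraries gave p = 0.25, its smallest possible value, for each.

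**Figure D1:**
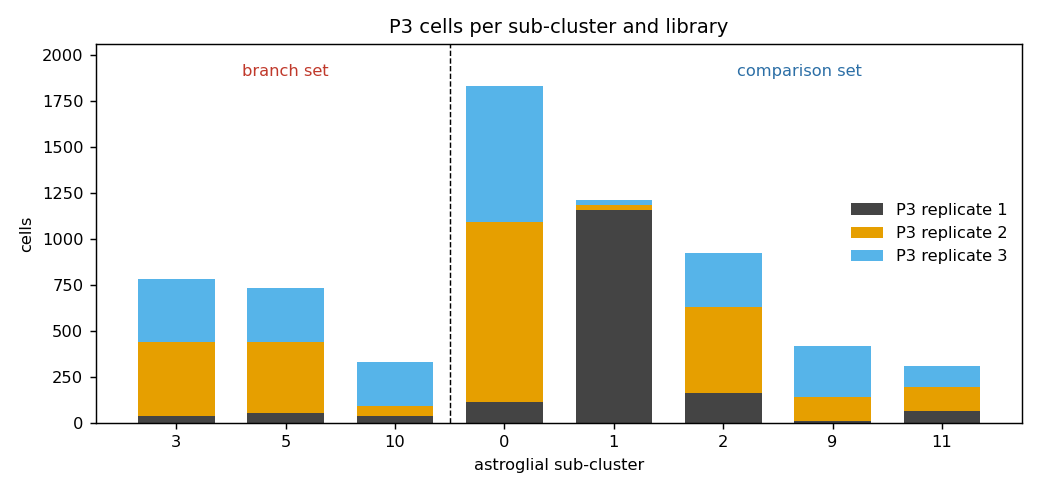
Stacked bars give the number of P3 cells in each astroglial sub-cluster, coloured by library, with the branch set left of the dashed line. Replicate 1 supplies 95.5% of sub-cluster 1 and few cells of the branch set.

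Differential expression was tested with edgeR on the 6 sums, with the library as a block, branch set over comparison set throughout. A call needed both a log2 fold change of 1 or more in size and an adjusted p no higher than 0.05. Of 12726 genes tested, 17.4% were called, 9.7% higher and 7.67% lower in the branch set, and the median log2 fold change was -0.01. Called or not, 5210 of them did not overlap between the sides, with all values of 1 side above all of the other. The authors drew the sub-clusters from these same UMIs, so each p sets a difference against the spread between libraries and does not test that the sides are separate populations. Fewer cells with a transcript and less of it per cell cannot be told apart in such sums.

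Of the 20 telencephalic patterning genes, 13 passed the filter on low counts. The test called 5 of them higher in the branch set and 1 lower, against 9.7% and 7.67% of all genes, and their median log2 fold change was 0.88. Lhx2 (chr2:38339281-38369733, plus strand, mm10) measured 218, 232 and 283 CPM in the branch set and 97.7, 91.7 and 115 CPM in the comparison set (log2 fold change 1.20 ± 0.06 (SE), adjusted p = 1e-11). All 3 branch-set values lay above all 3 comparison-set values. Fezf2, a zinc-finger factor of forebrain progenitors, measured 33.7, 11 and 25.3 CPM in the branch set and 1.64, 0.718 and 1.18 CPM in the comparison set (log2 fold change 4.17 ± 0.22 (SE), adjusted p = 1.44e-11). Pax6, a paired-box factor, measured 157, 68.6 and 134 CPM in the branch set and 55.8, 44.3 and 46.4 CPM in the comparison set (log2 fold change 1.11 ± 0.12 (SE), adjusted p = 3.21e-07), and its call was lost without replicate 3 (0.90) and without sub-cluster 10 (0.31). The groups did not overlap for either gene. Gsx2, a homeobox factor of the ventral telencephalon, measured 27.8, 15.9 and 21.1 CPM in the branch set and 2.55, 3.05 and 3.62 CPM in the comparison set (log2 fold change 2.59 ± 0.20 (SE), adjusted p = 2.96e-09). The dorsal factor Emx1 was rare, at 2.97, 2.56 and 9.24 CPM in the branch set and 0.458, 0.359 and 0.421 CPM in the comparison set (log2 fold change 3.43 ± 0.42 (SE), adjusted p = 1.49e-06). Both were higher in all 3 libraries. Emx1 could not be tested without sub-cluster 10, and Gsx2 turned with sub-cluster 3 alone as the branch set.

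Other members moved by less than the size threshold. These were the nuclear receptor Nr2e1 at 0.79, the homeobox factors Meis2 at 0.88 and Emx2 at 0.51, and Dmrta2 at 0.88, each with an adjusted p of at most 0.05 and a log2 fold change under 1. Emx2 measured 93.2, 94.9 and 100.4 CPM in the branch set and 59.9, 59 and 71.6 CPM in the comparison set. The ventral factor Dlx1 was lower, at 0, 1.1 and 1.61 CPM in the branch set and 5.69, 2.57 and 3.62 CPM in the comparison set (log2 fold change -1.55 ± 0.41 (SE), adjusted p = 0.00372). Dlx2, its partner, had a log2 fold change of -0.94, under the size threshold. Six3 (0.11) and Nkx2-1 (0.71) did not pass the test. The other 7 genes of the list, Dlx5, Dlx6, Gsx1, Sp8, Sp9, Lhx6 and Lhx8, were too rare to test.

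Of 5 astrocyte genes of non-telencephalic regions, 3 were lower in the branch set and 1 was higher, against 7.67% and 9.7% of all genes. Agt (chr8:124556534-124569706, minus strand, mm10), which encodes the precursor of angiotensin, measured 0.991, 3.84 and 1.21 CPM in the branch set and 87, 95.7 and 85.8 CPM in the comparison set (log2 fold change -5.29 ± 0.17 (SE), adjusted p = 1.59e-14). Branch-set cells held 28 Agt UMIs in all, against 3948 in the comparison set. Slc6a11 (chr6:114131241-114249952, plus strand, mm10) measured 119.9, 105 and 128 CPM in the branch set and 462, 361 and 472 CPM in the comparison set (log2 fold change -1.94 ± 0.06 (SE), adjusted p = 1.75e-14). Slc6a9 measured 19.8, 20.1 and 20.7 CPM in the branch set and 99.8, 91.8 and 114 CPM in the comparison set (log2 fold change -2.41 ± 0.09 (SE), adjusted p = 1.47e-13). None of these 3 genes overlapped between the sides, as was so for 5210 of all 12726 genes tested. The other members went the opposite way. Itih3, an extracellular matrix component, measured 84.3, 27.1 and 43.8 CPM in the branch set and 23.3, 14.8 and 18.2 CPM in the comparison set (log2 fold change 1.20 ± 0.14 (SE), adjusted p = 5.48e-07), and its call was lost without replicate 1 (0.98). Sparc, a secreted matricellular protein, measured 1469, 713 and 989 CPM in the branch set and 605, 424 and 479 CPM in the comparison set, a log2 fold change of 0.93 that stayed under the size threshold (adjusted p = 2.16e-09).

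Among 4 astrocyte genes of the telencephalon, Lhx2, also a member of the patterning list, was the 1 called. Of all genes, 9.7% were called higher and 7.67% lower. The milk-fat globule protein Mfge8 (-0.85), the glutamate transporter Slc1a2 (-0.55) and the connexin Gjb6 (0.20) were not called. Mfge8 measured 941, 613 and 532 CPM in the branch set and 1747, 1021 and 855 CPM in the comparison set, lower in the branch set within each library, though the sides overlapped between libraries.

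**Figure D2:**
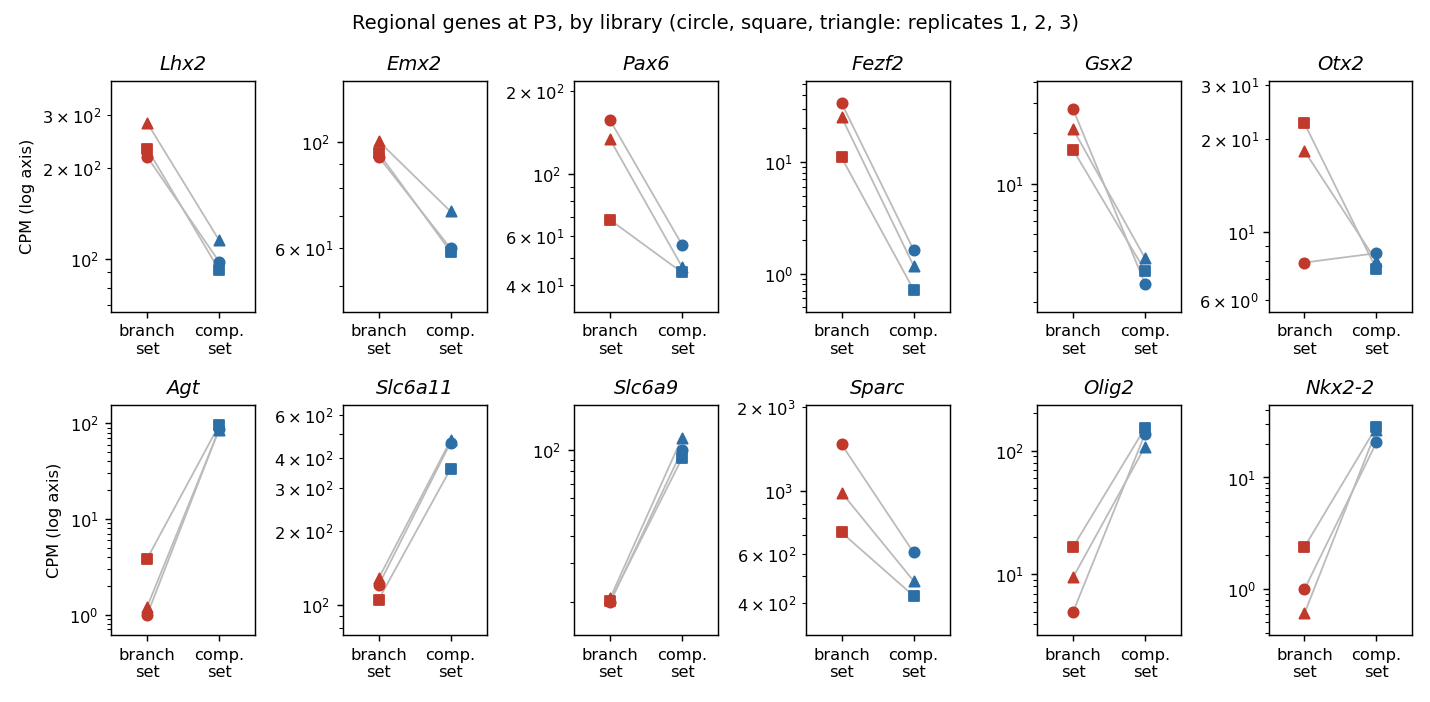
Each panel gives 1 gene in CPM on a log axis, with 1 point per library on each side and a grey line joining the sides of a library. Lhx2, Emx2, Pax6, Fezf2, Gsx2 and Sparc are higher in the branch set in all 3 libraries, Otx2 in replicates 2 and 3, and Agt, Slc6a11, Slc6a9, Olig2 and Nkx2-2 are lower.

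Most patterning genes of other regions were rare or not detected on both sides. Exceptions were Tcf7l2 on both sides, Otx2 in the branch set, and Nkx2-2 and Egr2 in the comparison set. Of 32 midbrain, hindbrain and spinal genes, which include the Hox, En and posterior Pax genes, 23 had no UMI in any member cell. The test reached 1 of them, Egr2 (-3.30), a zinc-finger factor that also responds to stimulation, which was lower in the branch set, at 0.991, 1.46 and 2.21 CPM in the branch set and 12.8, 12.9 and 21.1 CPM in the comparison set. En1 had 0 UMIs in the branch set and 44 in the comparison set. Of 23 diencephalic genes, 8 had no UMI and 4 were tested, with 1 called higher and 1 lower, against 9.7% and 7.67% of all genes. Nkx2-2, a homeobox factor also of oligodendrocyte precursors, measured 0.991, 2.38 and 0.603 CPM in the branch set and 20.7, 28.5 and 26.5 CPM in the comparison set (log2 fold change -4.25 ± 0.25 (SE), adjusted p = 5.1e-11). Otx2 measured 7.93, 22.5 and 18.3 CPM in the branch set and 8.5, 7.53 and 8 CPM in the comparison set (log2 fold change 1.14 ± 0.19 (SE), adjusted p = 4.23e-05), with overlap between the sides, and its call was lost without replicate 2 (0.81). Tcf7l2, a nuclear factor of Wnt signalling that is also high in the thalamus, measured 69.4, 84.6 and 93 CPM in the branch set and 71.6, 58.9 and 68.8 CPM in the comparison set, and neither it (0.31) nor Otx1 (-0.60) was called. Irx1 had 1 UMI in the branch set and 60 in the comparison set, and Irx2, Irx3 and Irx5 had none in the branch set and 23, 38 and 16 in the comparison set. A count of 0 allows up to 3 UMIs over the summed branch-set libraries. Of 5 Zic genes, 2 were tested and Zic5 was lower (-1.09), against 7.67% of all genes, a call lost without replicate 2 (-0.56).

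The 3 branch-set sub-clusters were unlike each other, which is described here from their levels with no test. Sub-cluster 10 (332 cells) held the dorsal factors. Pax6 measured 391, 383 and 355 CPM there in replicates 1 to 3, against 64.7, 41.6 and 49.4 CPM in sub-cluster 3 and 62.8, 65.1 and 99.6 CPM in sub-cluster 5. Emx1 measured 6.99, 32.8 and 38.4 CPM in sub-cluster 10, which held 53 of its 63 UMIs in the branch set. Dmrta2 measured 66.4, 73 and 77.6 CPM, at most 3.17 CPM in the other two. Six3, which the other 7 sub-clusters carried at 88 to 141 CPM over the 3 libraries summed, had 2 UMIs in all of sub-cluster 10. Otx2, Nkx2-2 and Agt had 0 UMIs there. The genes that led sub-cluster 10 by ratio to the other branch-set sub-clusters were the transcription factor Tfap2c at 34.9, 47.4 and 68.5 CPM and Cpne4, which encodes a copine, at 76.8, 69.3 and 66.7 CPM, and the homeodomain-only protein Hopx measured 38.4, 318 and 356 CPM with the lowest value in replicate 1.

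Sub-cluster 5 (730 cells) held Gsx2 at 65.4, 35.4 and 52.5 CPM, against 6.16, 2.06 and 2.72 CPM in sub-cluster 3 and 0, 0 and 10 CPM in sub-cluster 10. Sub-cluster 3 (781 cells) was led by Crym, which encodes mu-crystallin, a binding protein of thyroid hormone, at 4835, 6654 and 5693 CPM, against 598, 815 and 635 CPM in sub-cluster 5 and 34.9, 10.9 and 66.7 CPM in sub-cluster 10. These genes were chosen after their values were seen. Lhx2 was high in all 3, at 257, 224 and 315 CPM over the 3 libraries summed, and Agt was at or under 5.5 CPM in each.

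Within the comparison set, sub-cluster 11 (307 cells) stood apart in the regional genes. Agt measured 1105, 884 and 798 CPM there, against 13 to 60.3 CPM over summed libraries in sub-clusters 0, 1, 2 and 9. Slc6a11 reached 1211 CPM and Aqp4 1417 CPM in it, whereas Lhx2 measured 22.2 CPM and Emx2 14.9 CPM, the lowest of the 8 sub-clusters. Irx1 and Irx3 reached 9.81 and 7.25 CPM there, the highest of the 8 sub-clusters, on 23 of 60 and 17 of 38 UMIs of the comparison set. Hopx, named above for sub-cluster 10, was high in sub-cluster 11 too, at a mean of 99.6 CPM against 5.93 CPM in 0, 1 and 2. Leaving sub-cluster 11 out, an alternative added after the data were seen, moved Agt from -5.29 to -4.22, Slc6a11 to -1.78, Slc6a9 to -2.29 and Lhx2 to 1.13, and all 4 stayed called. Against sub-clusters 0 and 1 alone, Lhx2 fell under the size threshold (0.97, adjusted p = 2.06e-09).

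**Figure D3:**
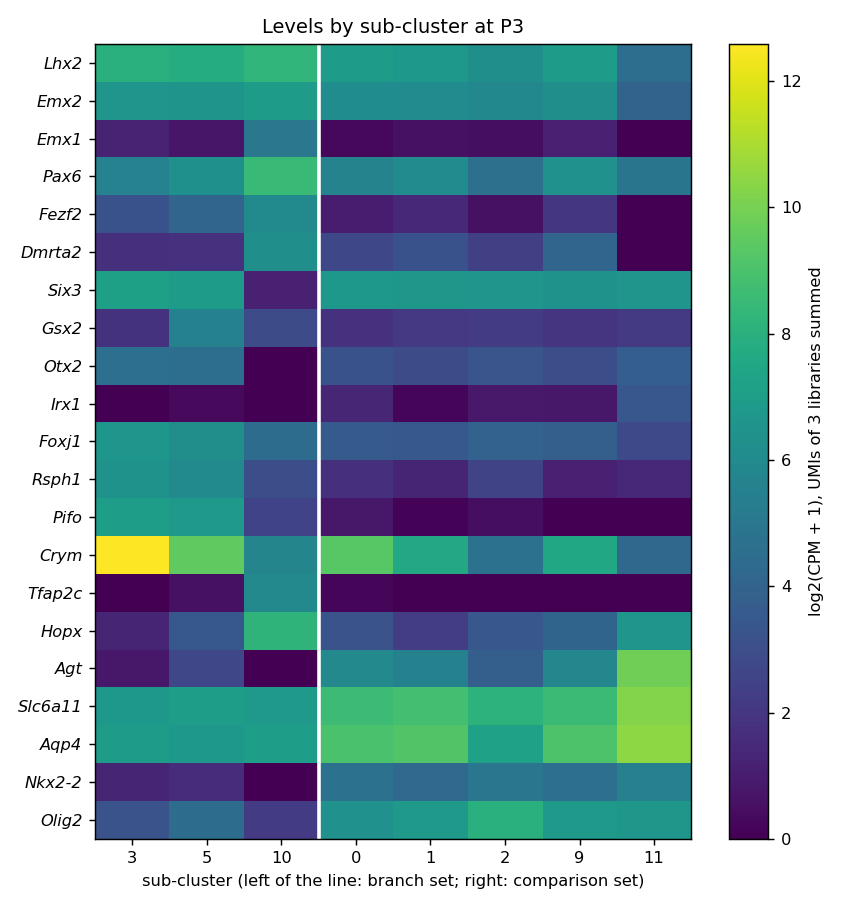
Colour gives log2(CPM + 1) of each gene in the 8 sub-clusters, with UMIs of the 3 libraries summed and the white line parting branch set (left) from comparison set (right). Pax6, Emx1, Dmrta2, Tfap2c and Hopx are high in sub-cluster 10, Gsx2 in 5 and Crym in 3. Agt and again Hopx are high in 11, and the ciliary genes Rsph1 and Pifo in 3 and 5.

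The largest changes followed the named-gene rule, which took the 12 largest folds each way among called genes that did not overlap between the sides and reached a mean of 50 CPM. Of the 12 highest in the branch set, Pifo, Tekt1, Enkur, Dynlrb2, Cfap126 and Rsph1 encode proteins of cilia. Multiciliated cells carry tufts of motile cilia, built on the axoneme, a cylinder of microtubules with dynein motors and radial spokes, under the control of Foxj1 and of RFX factors, which bind X-box sequences. Pifo, a protein of the ciliary base (chr3:105996957-106014646, minus strand, mm10), measured 84.3, 123 and 87.8 CPM in the branch set and 0.0654, 0.419 and 0.674 CPM in the comparison set (log2 fold change 7.94 ± 0.19 (SE), adjusted p = 5.32e-16), with 16 UMIs in all in the comparison set. Enkur, a protein inside axonemal microtubules (chr2:21180731-21205365, minus strand, mm10), measured 139, 148 and 158 CPM in the branch set and 3.47, 4.6 and 5.39 CPM in the comparison set (log2 fold change 4.96 ± 0.10 (SE), adjusted p = 4.27e-17). Dynlrb2, a dynein light chain, measured 78.3, 147 and 104 CPM in the branch set and 1.5, 3.95 and 3.88 CPM in the comparison set (log2 fold change 5.06 ± 0.12 (SE), adjusted p = 5.32e-16). The tektin Tekt1 (5.18), Mlf1 (5.18), Cfap126 (4.83), the radial spoke protein Rsph1 (4.42) and Capsl (4.39) moved with them. Foxj1 itself measured 50.6, 77.5 and 83.6 CPM in the branch set and 10.7, 9.45 and 15 CPM in the comparison set (log2 fold change 2.57 ± 0.12 (SE), adjusted p = 2.85e-12).

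Of the 6 multiciliated markers, 4 were tested and all 4 were higher, against 9.7% of all genes. Their summed level was 249, 367 and 302 CPM in the branch set and 15.9, 19.1 and 24.2 CPM in the comparison set. A UMI in at least 2 of the 6 was found in 34.7, 46.2 and 36.0% of branch-set cells and in 1.19, 1.73 and 1.24% of comparison-set cells, which were the deeper ones. Such cells were 52.8 to 59.8% of sub-cluster 3 by library, 38.6 to 42.6% of 5 and 0, 0 and 5.83% of 10. Sub-cluster 15, which is outside both sets, had them at 100% in each library. The level differed likewise, with Rsph1 at 86.6 CPM in 3, 63.7 CPM in 5 and 7.25 CPM in 10, and Rsph1, Cfap126 and Foxj1 were not called for sub-cluster 10 alone. Without the cells that held such UMIs, an alternative added after the data were seen, 1082 genes were higher and 989 lower of 12504 tested, with Lhx2 at 1.28 and Agt at -4.81. Of the called named genes, 122 kept their call in that run, 13 lost it, among them Itih3, Dlx1 and Zic5, and 4 could not be tested.

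Promoters of the ciliary genes are shown because these genes moved together. Of 9 (Foxj1, Pifo, Mlf1, Tekt1, Dynlrb2, Enkur, Cfap126, Rsph1 and Capsl), 7 had an entry in the RefSeq promoter table (GRCm38.p6, 300 bases around each annotated transcript start). The X-box half-site GTTGCC lay on either strand in promoters of 5 of these 7 genes, against 14.1% of all 27025 genes of the table. Pifo has 2 entries, and its match lies in that of the inner start, within the gene, and not in that of the outer start. A match is a description of the letters and not of binding. The promoters of Pifo and Enkur, picked after their matches were seen, are given with the half-site in capitals on whichever strand it lay, both from the minus strand, Pifo at chr3:106001448-106001747 and Enkur at chr2:21205316-21205615.
Pifo: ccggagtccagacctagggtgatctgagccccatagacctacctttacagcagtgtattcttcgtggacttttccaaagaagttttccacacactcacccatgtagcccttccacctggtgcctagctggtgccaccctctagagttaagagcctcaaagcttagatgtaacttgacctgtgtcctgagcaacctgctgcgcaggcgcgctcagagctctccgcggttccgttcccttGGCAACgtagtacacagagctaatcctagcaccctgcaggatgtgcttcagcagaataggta
Enkur: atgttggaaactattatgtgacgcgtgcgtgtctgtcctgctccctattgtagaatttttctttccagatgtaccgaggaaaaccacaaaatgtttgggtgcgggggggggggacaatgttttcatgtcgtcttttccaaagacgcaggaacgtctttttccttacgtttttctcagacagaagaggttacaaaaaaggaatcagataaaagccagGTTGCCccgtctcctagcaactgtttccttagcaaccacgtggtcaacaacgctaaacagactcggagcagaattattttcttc

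The remaining genes of the 12 highest encode signalling and adhesion proteins. Prex2, an exchange factor for Rac, measured 154, 88.3 and 127 CPM in the branch set and 5.04, 4.54 and 6.83 CPM in the comparison set (log2 fold change 4.36 ± 0.12 (SE), adjusted p = 1.41e-15). C1ql3, a secreted C1q-like protein of synapses, measured 49.6, 84.8 and 69.3 CPM in the branch set and 0.72, 2.63 and 2.11 CPM in the comparison set (log2 fold change 5.11 ± 0.16 (SE), adjusted p = 7.08e-15). Cntnap2, a neurexin-related adhesion protein, measured 40.6, 67.5 and 76.7 CPM in the branch set and 0.981, 2.63 and 3.12 CPM in the comparison set (log2 fold change 4.68 ± 0.15 (SE), adjusted p = 8.4e-15), and Fstl5, a follistatin-like protein, 54.5, 66.7 and 69.7 CPM in the branch set and 3.93, 3.59 and 2.95 CPM in the comparison set (log2 fold change 4.12 ± 0.14 (SE), adjusted p = 2.46e-14). None of the 4 overlapped between the sides, which the rule that picked the 12 required. Crym, outside the 12 by its size of 3.14 and named after its values were seen, had the highest level of the called genes described here, a mean of 2811 CPM against 290.0 CPM.

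Of the 12 most lowered genes, 2 encode transmitter receptors. Grm5, the metabotropic glutamate receptor 5 of young astrocytes (chr7:87584168-88134907, plus strand, mm10), measured 6.94, 2.19 and 2.81 CPM in the branch set and 239, 189 and 210.2 CPM in the comparison set (log2 fold change -6.20 ± 0.13 (SE), adjusted p = 1.03e-16), that is 33 UMIs against 9312. Gabbr2, a subunit of the GABA-B receptor, measured 6.94, 14.1 and 8.64 CPM in the branch set and 135, 99.1 and 128 CPM in the comparison set (log2 fold change -3.46 ± 0.15 (SE), adjusted p = 5.79e-13). Both genes were far under the comparison set in each library. Inka2, an inhibitor of the kinase Pak4, measured 0.991, 0.731 and 1 CPM in the branch set and 81.3, 69.1 and 55.6 CPM in the comparison set (log2 fold change -6.26 ± 0.19 (SE), adjusted p = 6.67e-15). Gatm, the first enzyme of creatine synthesis, measured 12.9, 24.1 and 34.6 CPM in the branch set and 259, 289 and 332 CPM in the comparison set (log2 fold change -3.57 ± 0.10 (SE), adjusted p = 2.34e-15). Igfbp2, which binds insulin-like growth factors, measured 36.7, 79.7 and 68.1 CPM in the branch set and 1062, 946 and 749.8 CPM in the comparison set (log2 fold change -3.79 ± 0.12 (SE), adjusted p = 1.59e-14). The palmitoyltransferase Zdhhc2 (-3.61) and Fndc5 (-3.57) were also among the 12, with Agt, Dbx2, Olig1, Olig2 and S100b.

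**Figure D4:**
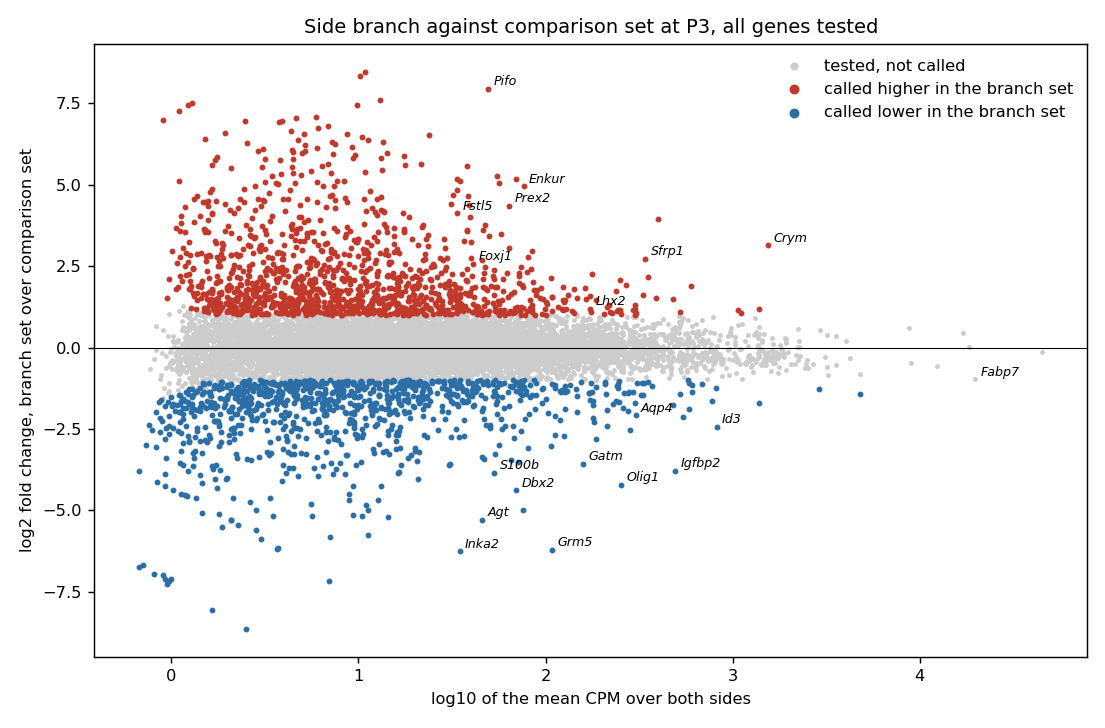
Each point is 1 of 12726 genes, with the log10 of its mean CPM over both sides on the x axis and its log2 fold change, branch set over comparison set, on the y axis, and called genes in colour. Pifo, Enkur and Prex2 lie at the top among genes of moderate level, and Grm5, Inka2 and Agt at the bottom.

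Genes of astrocyte immaturity and maturity were then read, since both sides are of the same age. The lists come from the study's text, which chose them on the same libraries, so their direction is not independent evidence. Of 10 immature astrocyte genes, 4 were lower and 0 higher, against 7.67% and 9.7% of all genes. Olig1, a helix-loop-helix factor of the oligodendrocyte lineage and of young astrocytes, measured 16.9, 28.9 and 31.7 CPM in the branch set and 423, 494 and 523 CPM in the comparison set (log2 fold change -4.20 ± 0.09 (SE), adjusted p = 4.27e-17). Olig2, its relative, measured 4.96, 16.6 and 9.44 CPM in the branch set and 136, 152 and 108 CPM in the comparison set (log2 fold change -3.50 ± 0.12 (SE), adjusted p = 2.99e-14). The helix-loop-helix inhibitors Id1 (-1.77) and Id3 (-2.44) were lower too. The fatty acid binding protein Fabp7, at 12349, 17882 and 11742 CPM in the branch set and 23615, 29293 and 23939 CPM in the comparison set, had a log2 fold change of -0.98, just under the size threshold, and Hes5 (-0.77), Nfia (0.34), Nfib (-0.43) and Nes (0.16) were not called. Sparc, the remaining member, is given above.

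Of 9 mature astrocyte genes, 2 were lower and 0 higher, against 7.67% and 9.7% of all genes. The water channel of astrocyte end-feet, Aqp4, measured 128, 99.6 and 135 CPM in the branch set and 554, 423 and 482 CPM in the comparison set (log2 fold change -2.07 ± 0.07 (SE), adjusted p = 1.75e-14). S100b, a calcium-binding protein, measured 9.91, 5.67 and 9.84 CPM in the branch set and 68.6, 115 and 109.8 CPM in the comparison set (log2 fold change -3.85 ± 0.14 (SE), adjusted p = 8.23e-14). The other 7 were not called, from Slc1a2 at -0.55 to glutamine synthetase, Glul, at 0.60. Of 6 maturation transcription factors, Fezf2 and Lhx2 were higher and Dbx2 was lower, at 8.92, 6.03 and 7.23 CPM in the branch set and 120.1, 137 and 137 CPM in the comparison set (log2 fold change -4.39 ± 0.11 (SE), adjusted p = 1.25e-15). Rora (0.04), Rorb (-0.13) and Pou3f3 (0.07) did not pass the test.

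Astrocyte markers were detected on both sides. All 9 astrocyte markers had UMIs on each side in each library, and their summed level was 5492 to 6948 CPM in the branch set and 6680 to 8170 CPM in the comparison set. The test called 4 of the 9 lower, against 7.67% of all genes. These were Aqp4, S100b, Aldh1l1, a folate enzyme (-1.08), and Atp1b2, the sodium pump subunit that carries the ACSA2 epitope (-1.09). Atp1b2 measured 221, 166 and 234 CPM in the branch set and 412, 382 and 429 CPM in the comparison set, lower in the branch set in each library, and its call was lost without replicate 2 (-0.97). Its part in the share of branch-set cells was not tested. The astroglial factor Sox9 (0.45), Slc1a3 (-0.38), Aldoc (0.38) and the connexin Gja1 (-0.64) were not called.

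Of 13 tested genes of transmitter uptake and metabolism, 6 were lower and 1 higher, against 7.67% and 9.7% of all genes, with a median log2 fold change of -0.55. Beside Slc6a11 and Slc6a9, the serine transporter Slc7a10 (-1.40), the cystine-glutamate exchanger Slc7a11 (-1.79), the glutamine transporter Slc38a3 (-1.89) and the mitochondrial carrier Slc25a18 (-1.10) were lower, the last not called without replicate 3 (-0.98). Gldc, of the glycine cleavage system, was the 1 higher gene, at 74.3, 73.3 and 89.4 CPM in the branch set and 40.2, 27.4 and 38.3 CPM in the comparison set.

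Genes of the FGF pathway were lower in 5 of 16 tested and higher in 1, against 7.67% and 9.7% of all genes. FGF ligands activate tyrosine kinase receptors and the Erk cascade, whose targets include Etv and Spry genes and the phosphatase Dusp6. The receptor Fgfr3 measured 47.6, 24.5 and 36 CPM in the branch set and 138, 113 and 134 CPM in the comparison set (log2 fold change -2.04 ± 0.09 (SE), adjusted p = 1.76e-12). The target Etv4 measured 5.95, 12.6 and 9.24 CPM in the branch set and 103, 84.1 and 105 CPM in the comparison set (log2 fold change -3.26 ± 0.13 (SE), adjusted p = 4.23e-13), and Spry1, a feedback inhibitor, 0.991, 3.66 and 1.81 CPM in the branch set and 36.3, 42.2 and 39.9 CPM in the comparison set (log2 fold change -4.04 ± 0.19 (SE), adjusted p = 2.22e-12). Dusp6 (-2.21) and the ligand Fgf1 (-1.02) were lower as well. The 1 higher gene was Fgf13 (1.23), which is not secreted.

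Of 19 BMP pathway genes tested, 7 were lower and 3 higher, against 7.67% and 9.7% of all genes. BMP ligands act through Smad factors that induce Id genes. The ligand Bmp7 (-2.60), the receptor Bmpr1b (-1.12) and the antagonists Chrdl1 (-2.67) and Fst (-3.30) were lower, and the ligand Bmp6 (4.01) and the pseudoreceptor Bambi (1.10) were higher, Bambi not without replicate 1 (0.98). The Id genes went both ways. Id3 measured 304, 286 and 234 CPM in the branch set and 1163, 1523 and 1411 CPM in the comparison set and Id2 measured 121, 58.9 and 96 CPM in the branch set and 555, 405 and 465 CPM in the comparison set (log2 fold change -2.53 ± 0.09 (SE), adjusted p = 2.65e-14). Id4 measured 512, 406 and 313 CPM in the branch set and 126, 73.7 and 78.1 CPM in the comparison set (log2 fold change 2.09 ± 0.08 (SE), adjusted p = 1.23e-13). Id1, Id2 and Id3 were lower and Id4 was higher in all 3 libraries.

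Of 18 Notch pathway genes tested, 6 were lower and 3 higher, against 7.67% and 9.7% of all genes. The receptors moved apart, with Notch2 at 131, 179 and 248 CPM in the branch set and 41.9, 67.9 and 87.4 CPM in the comparison set (log2 fold change 1.41 ± 0.07 (SE), adjusted p = 2.38e-12) and Notch3 lower at -1.05, a call lost without replicate 1 (-0.97). The ligand Jag1 (1.95) and Dlk1 (3.57), a non-canonical ligand, were higher. Dner (-2.47), Dll3 (-2.59), the glycosyltransferase Mfng (-1.93) and the targets Heyl (-1.47) and Nrarp (-1.35) were lower, and Mfng could not be tested without replicate 2.

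Wnt pathway genes were lower in 11 of 29 tested and higher in 4, against 7.67% and 9.7% of all genes. Sfrp1, a secreted Wnt antagonist, measured 648, 507 and 629.8 CPM in the branch set and 107, 68.1 and 83.5 CPM in the comparison set (log2 fold change 2.73 ± 0.07 (SE), adjusted p = 8.85e-16). The receptors split, with Fzd5 (4.06), Fzd8 (1.32) and Lgr4 (1.04) higher and Fzd7 (-1.04), Fzd9 (-2.70), Fzd10 (-2.51) and Lgr6 (-3.95) lower. Fzd5 measured 29.7, 20.5 and 21.3 CPM in the branch set and 1.77, 0.658 and 1.77 CPM in the comparison set. The ligands Wnt5a (-1.05), Wnt5b (-1.38) and Wnt7b (-1.03), the antagonist Sfrp2 (-1.004), the nuclear factors Lef1 (-3.30) and Tcf7 (-1.01) and the feedback gene Nkd1 (-1.70) were lower. Of the 11 lower genes, 6 lost their call when 1 library was left out. Without replicate 1 these were Wnt5a (-0.9989), Wnt7b (-0.99) and Tcf7 (-0.94), without replicate 2 Wnt5b (-1.11), Sfrp2 (-0.73) and Fzd7 (-0.99), and without replicate 3 Wnt5a (-0.85), Wnt5b (-1.69) and Tcf7 (-1.08). The higher Lgr4 lost its call without replicate 2 (0.78). With no replicate block, Wnt5b, Sfrp2 and Tcf7 were not called.

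Of 12 Hedgehog genes, the co-receptor Cdon (2.90) was higher and the antagonist Hhip (-1.17) was lower, though not without replicate 2 (-0.73), and the ligand Dhh was called lower on 1 UMI against 104. Of 9 retinoic acid genes, the receptors Rarg (2.20) and Rxra (1.07) were higher, Rxra not without replicate 3 (0.94), and Rdh10 (-1.09) and Rxrg (-3.88) were lower. The synthetic enzyme Aldh1a1 was called lower on 1 UMI against 103. The calls in these lists stand beside 9.7% of all genes called higher and 7.67% called lower.

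Axon guidance genes were the list with the most higher members, 12 of 31 tested, with 5 lower, against 9.7% and 7.67% of all genes, and a median log2 fold change of 0.25. Ephrins and Eph receptors, which act by cell contact, made up 7 of the 12: Efnb2 (1.91), Efnb1 (1.23), Efnb3 (1.16), Efna5 (1.01), Epha3 (1.77), Ephb1 (1.57) and Epha4 (1.12). Efnb2 measured 43.6, 40 and 46.4 CPM in the branch set and 12.4, 9.63 and 11.3 CPM in the comparison set (log2 fold change 1.91 ± 0.12 (SE), adjusted p = 8.92e-11). The secreted cues Slit2 (1.96), Ntn4 (1.54) and Ntn1 (1.08), the semaphorin Sema5a (2.05) and the netrin receptor Unc5d (1.99) were also higher. Calls were lost without replicate 2 for Efna5 (0.58) and Ntn1 (0.59) and without replicate 3 for Epha4 (0.92) and Sema5a (1.45), and Epha4 was not called with no replicate block. Slit1 was called lower on 1 UMI against 261, while Nrp1 (-3.18), Sema6d (-1.46), Plxna4 (-1.65) and Plxna2 (-1.36) made up the other lower members. Sub-cluster 10 differed within the list, with Ntn1 at -2.09 and Slit2 at -0.21 when it stood alone for the branch set. Sema5a and Unc5d could not be tested with sub-cluster 3 or 5 alone.

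Of 16 cadherin genes tested, 8 were lower and 3 higher, against 7.67% and 9.7% of all genes. The protocadherin Pcdh17 measured 46.6, 38.2 and 39.2 CPM in the branch set and 209, 136 and 149 CPM in the comparison set (log2 fold change -2.01 ± 0.08 (SE), adjusted p = 1.94e-13), and Pcdh7 (-2.40), Pcdh19 (-3.55), Cdh20 (-2.74), Cdh22 (-1.92), Cdh13 (-1.70), Cdh10 (-1.45) and Cdh6 (-1.05) completed the lower members, of which Cdh6 lost its call without replicate 1 (-0.99) and without replicate 3 (-0.99). Pcdh8 measured 58.5, 41.3 and 57.7 CPM in the branch set and 6.35, 6.94 and 7.67 CPM in the comparison set (log2 fold change 2.76 ± 0.13 (SE), adjusted p = 2.92e-12), and Pcdh15 (4.86) and Cdh4 (1.23) were higher with it. Without sub-cluster 10, Pcdh15 could not be tested and Cdh4 lost its call. Among 17 synaptogenic and matricellular genes, 6 were lower, with the proteoglycans Bcan (-1.64), Ncan (-1.87) and Gpc5 (-2.21), Igfbp2, Chrdl1 and Sparcl1 (-1.70), and Thbs1 (1.69) and Thbs4 (1.22) were higher from means under 3 CPM. Thbs1 could not be tested without replicate 2, and Thbs4 lost its call without replicate 1 (1.10) and without replicate 3 (1.05). Bcan, a brevican of the perisynaptic matrix, measured 430.2, 341 and 414 CPM in the branch set and 1215, 1055 and 1185 CPM in the comparison set. Of 12 glial filament and lipid carrier genes, Fabp5 (-1.28) and S100b were lower and 0 were higher. Of 9 immediate early genes, Junb (-1.86), Egr1 (-1.37) and Ier2 (-1.38) were lower. The synaptogenic, glial filament and immediate early lists also stand beside 7.67% of all genes called lower and 9.7% called higher. Junb measured 30.7, 155 and 154 CPM in the branch set and 286, 443 and 496 CPM in the comparison set, with the branch-set value of replicate 1 far under those of replicates 2 and 3.

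Markers of other cells were low on both sides. The summed level of 6 microglial markers was at most 0.603 CPM in any sum and that of 6 endothelial markers at most 4.47 CPM. Mural markers summed to 66.9 to 120 CPM in the branch set and 31.0 to 48.3 CPM in the comparison set, mostly Pdgfrb (1.12). The mural gene Rgs5 (2.41) rested on sub-cluster 10, at 55 CPM there. The fibroblast list summed to 18.5 to 19.8 CPM against 6.99 to 9.29 CPM, with Col1a2 (1.47) called. Neuronal markers summed to 24.9 to 38.7 CPM against 12.3 to 13.9 CPM, with Stmn2 (2.43) called. The precursor markers of oligodendrocytes summed to 0.991 to 4.22 CPM against 7.71 to 10.9 CPM, with Cspg4 (-1.56) lower. Oligodendrocyte markers summed to 4.82 to 6.94 CPM against 6.40 to 6.49 CPM, and globin genes to 0.991 to 10.8 CPM against 1.70 to 11.1 CPM. The part of such cells in the differences above was not tested.

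The selection left the cycling sub-clusters 6 and 8 out of both sets, so dividing cells were bound to be rare on both sides taken as wholes. With each cell thinned to 2000 UMIs, a UMI in at least 2 of Mki67, Top2a and Cdk1 was seen in 0.346 ± 0.415% (SD, n = 3 libraries) of branch-set cells and 0.247 ± 0.112% of comparison-set cells, after 0 to 13 cells a library in the branch set and 35 to 94 in the comparison set were left out as too shallow. Those shares rest on 1, 0 and 2 cells of the branch set and 2, 4 and 5 of the comparison set in replicates 1 to 3. The exact paired permutation test gave p = 1, on counts too small to tell the sides apart. Without thinning, the shares were 0.962 ± 0.587% and 2.90 ± 0.585%. Sub-cluster 2 of the comparison set held 13.6, 10.7 and 9.97% such cells unthinned, and without it the comparison-set share was 0.964 ± 0.366%. Of 3 proliferation genes, Mcm2 (-0.95), Cdk1 (-0.30) and Mki67 (-0.73), 0 were called. Of 5 cycling markers Ccnb1 (-1.98) and Ube2c (-1.47) were lower, both from means under 6 CPM and both not called without replicate 2 (-1.65 and -0.45). Both lists stand beside 9.7% of all genes called higher and 7.67% called lower.

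The comparison of the sides was repeated at 3m, between sub-clusters 13 and 16, which the study placed with the same side branches, and the main adult sub-clusters 7 and 14, to ask whether the same difference holds at both ages. The 3m sums held 323 cells (17, 257 and 49 in replicates 1, 2 and 3) against 788. Of 9937 genes tested at both ages, 8.97% were called between the sides at 3m, 5.03% higher and 3.93% lower in sub-clusters 13 and 16. In the edgeR interaction of side and age, 18.5% differed between the ages, 9.37% with the P3 log2 fold change above that at 3m and 9.14% with it below. Of the genes called at 3m, 29.4% were also called at P3, beside 13.9% of all genes tested at both ages, and these were 19.0% of the P3 calls tested at both ages. Of these 262 genes, 172 went in opposite directions and 90 in the same direction. The ages share no library, but the authors clustered both ages together and the sub-clusters compared are not the same ones.

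The regional genes were among those that turned. Lhx2 at 3m measured 65.1, 30.4 and 39.4 CPM in sub-clusters 13 and 16 and 250.0, 260.0 and 229 CPM in 7 and 14 (log2 fold change -2.90, adjusted p = 6.46e-11). Agt at 3m measured 912, 962 and 774 CPM and 59.3, 74.6 and 47.5 CPM (3.78, adjusted p = 8.17e-17). The difference between ages was 4.11 for Lhx2 and -9.05 for Agt, P3 minus 3m on the log2 scale. Of 9 telencephalic patterning genes tested at both ages, 7 differed, and the median log2 fold change of the 9 at 3m was -1.89. Slc6a11 (2.50 at 3m), Slc6a9 (2.84), Olig1 (2.82), Olig2 (3.10) and Nkx2-2 (2.32) were higher in sub-clusters 13 and 16 at 3m, opposite to the branch set at P3. Markers of other cells were higher there too at 3m. The median log2 fold change was 2.95 for the 6 oligodendrocyte markers and 3.04 for the 3 neuronal markers tested at both ages. The part of such transcripts in the 3m differences was not tested. Sparc (3.26) and Itih3 (3.38) were positive at both ages.

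**Figure D5:**
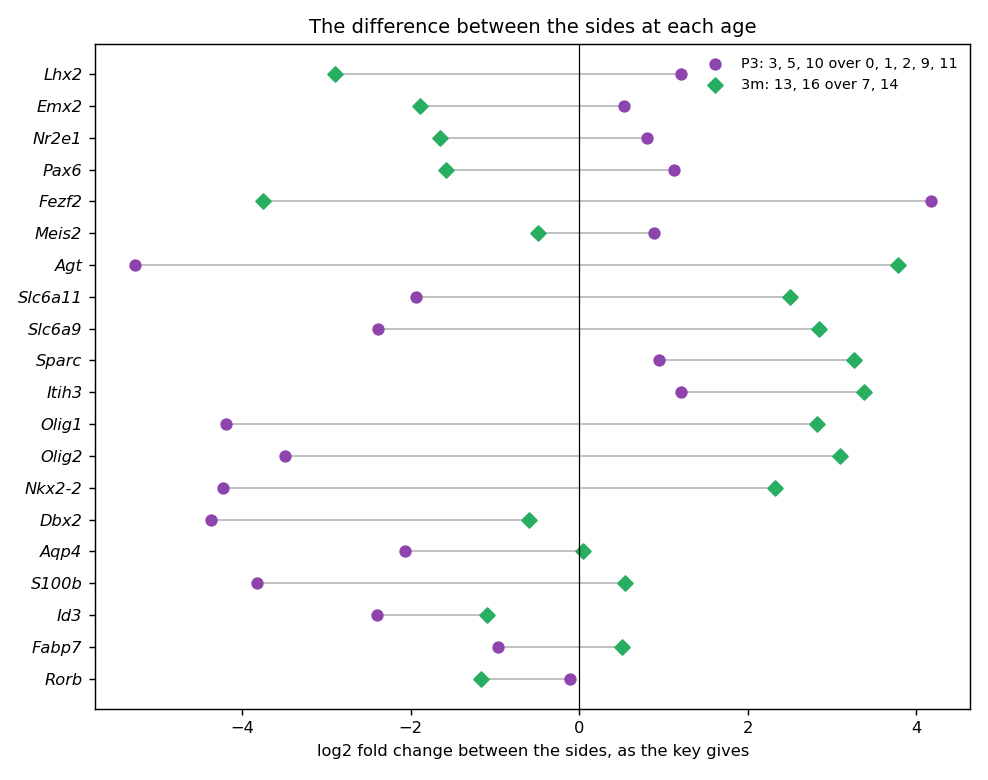
Points give the log2 fold change of each gene, branch set over comparison set, at P3 (circles) and of sub-clusters 13 and 16 over 7 and 14 at 3m (diamonds), from 1 fit over both ages. Lhx2, Emx2, Nr2e1, Pax6 and Fezf2 lie right of 0 at P3 and left of it at 3m, and Agt, Slc6a11, Slc6a9, Olig1, Olig2 and Nkx2-2 do the reverse.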

How the data were processed

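Cells were ACSA2-enriched and sequenced by the authors, who used Cell Ranger to map reads to mm10 and count UMIs, and annotated cells with Seurat (3.1.1 per the labels' processing notes). The deposited table holds UMI counts of 32285 genes in 16690 barcodes, merged and not normalized. Barcodes with 500 genes or fewer or with 10% or more mitochondrial UMIs had been left out by the authors, who clustered astroglial cells of both ages together at resolution 0.7; the deposited annotation gives each cell's sub-cluster number and a pseudotime score, which was not tested here. No doublet call was made here, and the study's methods as used here name none. All columns of cells were mapped to a library by their prefix.

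UMIs were summed per library and side. Genes were filtered with filterByExpr, scaled by TMM and tested with edgeR 4.0.16 (glmQLFit and glmQLFTest, R 4.3.3) with Benjamini-Hochberg adjustment over all genes tested, called at adjusted p at most 0.05 and absolute log2 fold change at least 1. The library was a block because both sums of a library come from 1 preparation; their deviations from the side means correlated at 0.38, 0.39 and 0.34 within libraries. The interaction of side and age was fitted over both ages in the same way. SE is the log2 fold change over the root of F. Two-sided exact paired permutation tests served single values. P-values rest on 3 preparations of pooled animals.

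Named genes were those called in the gene lists, the tested members of the regional lists, the 12 largest changes each way without overlap and at a mean of 50 CPM, leaving out predicted, unnamed and mitochondrial genes, the study's maturation genes and the marker lists. Members and lists were chosen with earlier results of these data known. Some genes of the lists are not reported here and were left out of the lists' counts and medians. Gene positions are from GENCODE M21 (GRCm38, which is mm10). Other scalings, filters, DESeq2 1.42.0, left-out libraries and other choices of cells were tried as alternatives.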

Additional observations from a re-analysis of the deposited data

Results flagged for a closer look

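The difference between the sides, branch set over comparison set at P3 and sub-clusters 13 and 16 over 7 and 14 at 3m, was not the same at P3 and 3m for 1839 of 9937 genes in the edgeR interaction of side and age. The values that follow are the P3 difference minus the 3m difference on the log2 scale, for each gene of the regional and maturation lists that passed this test. Among patterning genes the values were 4.11 for Lhx2, 2.42 for Emx2, 2.70 for Pax6, 2.46 for Nr2e1, 7.93 for Fezf2, 1.38 for Meis2 and -6.54 for Nkx2-2. Gsx2 gave 9.23 and Egr2 -9.53, but at 3m Gsx2 had 0 UMIs in sub-clusters 13 and 16 and 6 in 7 and 14, and Egr2 had 1 and 0, so no size can be read from either.

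The astrocyte genes of non-telencephalic regions gave -9.05 for Agt, -4.43 for Slc6a11, -5.23 for Slc6a9, -2.31 for Sparc and -2.17 for Itih3. Of immature astrocyte genes, Olig1 gave -7.01, Olig2 -6.58, Fabp7 -1.47, Id1 -1.66 and Id3 -1.31. Of mature astrocyte genes, Aqp4 gave -2.11 and S100b -4.37, and of maturation factors Rorb gave 1.06 and Dbx2 -3.77. Each of the 23 genes was tested under 9 alternatives, and 18 passed in all 9. The exceptions were Gsx2, called in 7, Egr2, in 3, Fabp7, in 7 (at its smallest -0.81 without 3m replicate 2), Id3, in 8 (-0.90 without 3m replicate 3), and Rorb, in 8 (0.92 without 3m replicate 1).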

How the results depend on the processing

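The count of called genes, 2211 (1235 higher and 976 lower), was 2165 with no replicate block, which changed no count of calls by over 1.5 times, and 2221 with RLE scaling. Where fewer genes could be tested it was smaller: 1085 (607 higher, 478 lower) of 8500 with the stricter filter of at least 10 CPM in 3 sums, and 1167 (647 higher, 520 lower) of 8691 with sums thinned to the smallest. For sub-cluster 10 alone 723 genes were higher. Without replicates 1 to 3 in turn the count was 2111 to 2406 (1178 to 1370 higher, 933 to 1036 lower); the cells added or left out otherwise gave 1747 to 2314. Of 139 called named genes, 63 kept call and direction under every alternative run. A gene too rare to test counted as not kept, as were 34 with the stricter filter and 40 with thinned sums. Over all 170 named genes tested, 23 results of 1 gene in 1 alternative turned with a call in the main or the alternative run. Further sign changes had no call in either run, the most in 1 alternative being 6, without sub-cluster 2 in the comparison set. The age count of 1839 was 1271 to 1984 without 1 library, lowest without 3m replicate 2, and 1697 with no replicate block.

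Turned with sub-cluster 10 alone were Six3 at -6.50, Nkx2-1 at -7.55, Otx1 at 1.13, Otx2 at -8.91, Zic5 at 1.23, Hhip at 0.49, Lgr4 at -1.39, Slit2 at -0.21, Ntn1 at -2.09, Plxna2 at 0.28, Epha3 at -0.0648 and Ephb1 at -0.86. With sub-cluster 3 alone Pax6 gave -0.0419, Dmrta2 -1.51, Gsx2 -0.36 and Rgs5 -0.15, with 5 alone Dmrta2 -1.47 and Rgs5 -0.56, and without 10, an alternative added after the data were seen, Dmrta2 -1.49 and Rgs5 -0.31. Adding sub-clusters 4, 12 and 15 turned Cdk1 (1.73), Ccnb1 (1.73) and Ube2c (1.77), moved the difference in median UMIs per cell from -1883 to -2801 and that in cycling cells from 0.0997 to 1.55 percentage points. The latter was -1.94 points without thinning and -0.186 to 0.271 without 1 library; the former was -1279 without sub-cluster 2 and -2219 to -1637 without 1 library. The cause of these moves was not tested. The share of branch-set cells, a mean of 18.9 ± 11.1% (SD, n = 3), was 14.7 to 25.2% without 1 library, and the difference in mitochondrial share, -0.713 points, was -0.792 to -0.575. The smallest branch-set sum, 1008847 UMIs, limits genes under 3 CPM, where that library holds about 3 UMIs or fewer.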
